A study of Homo sapiens with 6 samples.

Results

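The clade B serpins are a family of protease inhibitors that lack a classical secretion signal and act mostly inside the cell, and 10 of their genes, which lie in clusters at 18q21 and 6p25, were followed in MCF-10A cells made to overexpress MBD2. Members were chosen by symbol: every probe set that the platform annotation assigned to exactly 1 of SERPINB1, SERPINB2, SERPINB3, SERPINB4, SERPINB5, SERPINB6, SERPINB7, SERPINB8, SERPINB9 and SERPINB13 was kept. This gave 21 of 41091 probe sets with a single symbol, and they covered 8 of the 10 genes. SERPINB2 and SERPINB6 were not assigned a probe set in the annotation used and were not analysed here. Of the 8 genes, SERPINB13 had 6 probe sets, SERPINB1 4, SERPINB9 3, SERPINB3, SERPINB5 and SERPINB8 2 each, and SERPINB4 and SERPINB7 1 each.

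A serpin presents an exposed reactive centre loop as bait, and a protease that cleaves the loop is trapped in a covalent complex. The residues of the loop set which proteases are caught, so that close relatives can differ in target. In stratified epithelia and in cultured keratinocytes several clade B serpins are abundant and are induced as cells differentiate, while others are best known from leukocytes.

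MCF-10A is an immortalized, nontransformed line of human breast epithelial cells, cultured here in a mammary epithelial growth medium. The 3 MBD2 arrays hold RNA of cells infected with a lentivirus that carries MBD2, packaged in HEK293 cells, and the 3 control arrays hold RNA of the same line without that virus. The submitters' design text describes the controls as not infected and the replicates as technical, whereas the methods describe an empty virus and biological replicates. Whether the replicates came from separate cultures cannot be told apart from these sources, so p-values measure only the spread between arrays, part of which may be technical. Whether the infected cells were a clone or a pool is not given in the sources used here.

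Values are log2 expression levels from Affymetrix U133 Plus 2.0 arrays, normalized by the authors with RMA, so that a difference of 1 is a factor of 2. The MBD2 transcript itself was higher on the MBD2 arrays, with 12.17, 11.72 and 12.50 in MBD2 cells against 8.92, 9.03 and 9.68 in control cells on its brightest probe set (log2 difference 2.92, standard error 0.28, adjusted p = 0.0157 from limma). Its other 3 probe sets had log2 differences of -0.08, -0.03 and 0.11 and were not called. They were dim, with means of 4.65, 3.97 and 3.15 in MBD2 cells and 4.73, 4.01 and 3.04 in control cells. The means of 3.97 and 4.01 and those of 3.15 and 3.04 lay below the background limit of 4.17 defined below. Within the groups the arrays were not equally spaced. Counting genes whose values differed by more than 2-fold, there were 95 between MBD2 arrays 2 and 3 and 2877 between MBD2 arrays 1 and 2, against 5 between control arrays 1 and 2 and 1572 between control arrays 1 and 3. The bacterial transcripts added before hybridization averaged 10.7, 9.72 and 9.79 on MBD2 arrays 1, 2 and 3 and 10.8 to 11.1 on the control arrays. All 6 measured genes of a list of 10 basal and mammary epithelial markers were above background on average. The mean of the list was 11.69 to 12.10 on MBD2 arrays and 11.86 to 12.74 on control arrays. The log2 differences of the 6 had a median of -0.49 and ran from -1.26 to 0.81. Of the 6, 0 were called, against 1.5% lower and 1.25% higher of all genes. Background was taken as any value up to 4.17, which is 0.5 above the brightest reading of the array's TrpnX controls, whose bacterial transcript the samples lack.

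Of the 21 serpin probe sets, 6 were lower in MCF-10A cells overexpressing MBD2 and 0 were higher. They belong to SERPINB3 and SERPINB13, which lie in the same 18q21 cluster. A probe set was called at an adjusted p under 0.05 from limma, with Benjamini-Hochberg adjustment over all 41091 probe sets, and a fold change of at least 1.5. By the same rule 0.978% of all probe sets were called lower and 0.898% higher. At an unadjusted p under 0.05, limma gave 13 lower and 0 higher serpin probe sets, against 8.05% lower and 8.49% higher of all. On 14 of the 21 every MBD2 array lay below every control array, and on 0 every MBD2 array lay above, against 12.3% and 10.4% of all probe sets. The median log2 difference of the 21 was -0.66, and that of all probe sets was -0.0047. Probe sets of 1 gene share a transcript and are not independent of each other. With each gene represented by its brightest probe set, 2 of 8 genes were lower and 0 higher, against 1.5% and 1.25% of 19775 genes.

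How the calls divided by direction over the whole table changed strongly under 1 form of rescaling. When every array was centred on the median of the housekeeping genes, the median of all probe sets moved to 0.537, and 386 of all were called lower and 12422 higher, against 402 lower and 369 higher with the values as deposited. In the family 7 were then lower and 1 higher, the addition being SERPINB4 among the lower and a background-level probe set of SERPINB9 as the higher. This centring takes the median level on each array, which need not rest on the same genes on every array. The 18 measured housekeeping genes themselves had a median log2 difference of 0.0043 on the deposited scale. Centring on the median deviation of these genes from their own means, added after that result was seen, gave 388 of all lower and 410 higher. Further quantile normalization gave 408 and 360. In the family both gave 6 lower and 0 higher. Differences below are those of the deposited scale. Under the centring on the median of the housekeeping genes, the form meant below, each lies 0.54 higher.

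The calls also depended on single arrays, as did those of the whole table. Without MBD2 array 1, 8 serpin probe sets were called lower, against 4.68% of all probe sets. The count was 2 without MBD2 array 2 (0.163% of all), 2 without MBD2 array 3 (0.09%), 1 without control array 1 (0.0487%), 0 without control array 2 (0.0438%) and 6 without control array 3 (1.24%). With the near-identical arrays of each group averaged into 1 value, limma called 0 probe sets in all.

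MBD2 arrays 2 and 3 were those with low hybridization controls, and with that level as a block, which leaves MBD2 array 1 to be set against the control arrays, 2 of the 6 calls stood, 211362_s_at and 216258_s_at of SERPINB13, against 0.604% of all probe sets called lower. Both probe sets of SERPINB3 and the brighter pair of SERPINB13 lost the call (adjusted p = 0.0948 to 0.102 from limma). Under the block the log2 differences of the 6 were between -6.07 and -2.76. On MBD2 array 1, 20 of the 21 probe sets lay below the control mean, as did 57.3% of all probe sets.

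**Figure D1:**
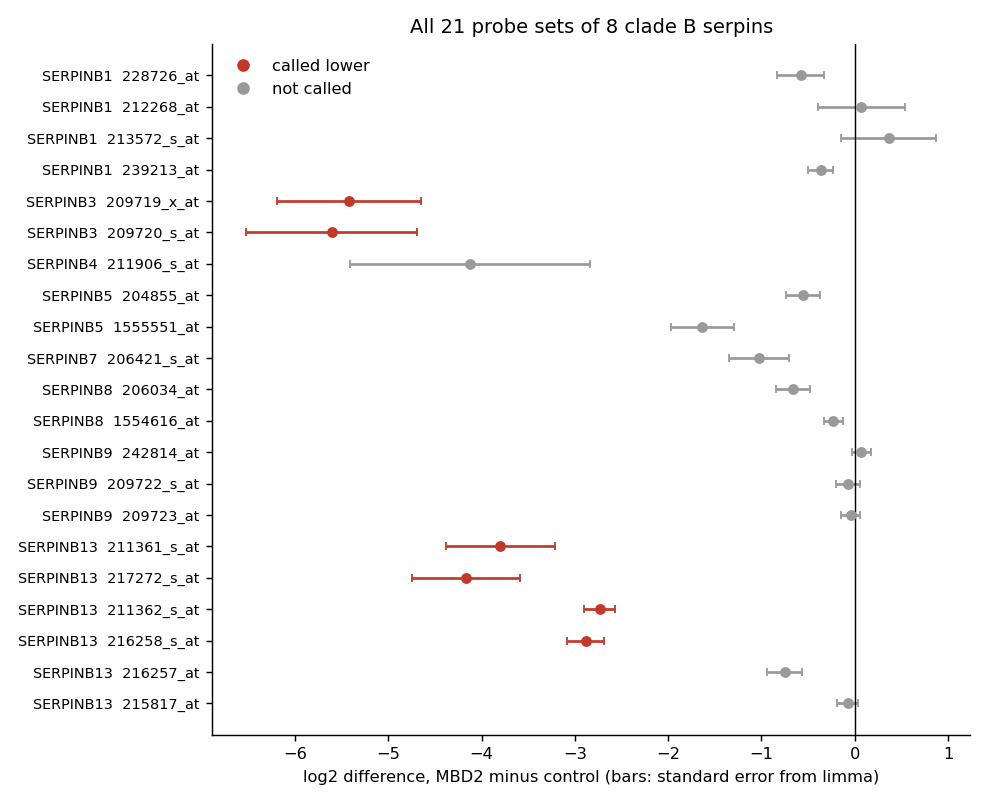
Log2 difference between MBD2 and control cells for each of the 21 probe sets, as points with the standard error from limma, grouped by gene. The 6 probe sets called lower (red) are both of SERPINB3 and 4 of SERPINB13, and the 15 others (grey) lie between -4.12, for SERPINB4, and 0.36.

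SERPINB3, also known as squamous cell carcinoma antigen 1, inhibits papain-like cysteine proteases such as cathepsins L, K and S. Its brighter probe set (209719_x_at) had 6.34, 7.33 and 5.52 on MBD2 arrays 1, 2 and 3, against 11.11, 10.99 and 13.37 on control arrays 1, 2 and 3. The groups were far apart, and control array 3 stood above the other controls. The mean was 6.40 ± 0.90 in MBD2 cells and 11.82 ± 1.34 in control cells (SD, n = 3 each), a 43.0-fold decrease (log2 difference -5.42, standard error 0.77, adjusted p = 0.037 from limma). The second probe set (209720_s_at) had 4.99, 6.73 and 4.64 in MBD2 cells against 10.10, 10.22 and 12.86 in control cells, a 48.7-fold decrease (log2 difference -5.61, adjusted p = 0.0485 from limma). On both probe sets MBD2 array 2 was the highest and MBD2 array 3 the lowest of the MBD2 arrays, and control array 3 was the highest of all. Leaving out MBD2 array 2 or 3 or control array 1 or 2 put the adjusted p of limma above 0.05 for both, at 0.0932 to 0.162 for the brighter and 0.103 to 0.212 for the second, while the log2 difference stayed between -5.89 and -4.65 and between -6.25 and -4.71 when any array was left out. With the hybridization level as a block the adjusted p was 0.0948 for the brighter (log2 difference -5.48) and 0.102 for the second (log2 difference -6.07).

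SERPINB4, squamous cell carcinoma antigen 2, is the neighbouring and most similar gene, and its product is known to inhibit serine proteases such as cathepsin G and mast cell chymase. Its probe set (211906_s_at) had 3.27, 3.63 and 3.25 in MBD2 cells, against 5.81, 6.08 and 10.63 on control arrays 1, 2 and 3. All MBD2 arrays were at background, which limits how large a decrease can be seen, and control array 3 lay 4.68 above the mean of the other 2 controls. The means were 3.38 ± 0.22 in MBD2 cells and 7.50 ± 2.71 in control cells (SD, n = 3 each), and the log2 difference of -4.12 (standard error 1.29) did not pass the test (adjusted p = 0.2 from limma). Without control array 3 it was -2.56 with an adjusted p of 0.0165, and with the arrays centred on the median of the housekeeping genes it was -3.58 with an adjusted p of 0.0466. A further probe set (210413_x_at) was annotated to both SERPINB3 and SERPINB4 and therefore belonged to neither by the rule. It had 6.55, 6.81 and 6.26 in MBD2 cells and 9.49, 9.47 and 12.64 in control cells, a log2 difference of -3.99 with no test.

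The promoters of the pair are shown because they are close to identical, like the transcripts on which their probe sets rely. In the RefSeq windows of 300 bases, which run from 250 before to 50 after the annotated start of each gene (GRCh38.p14), SERPINB3 and SERPINB4 were the same at 296 positions (98.7%). The 4 differences are G126A, G201A, C228T and T260C, with the base of SERPINB3 first, the position counted from 1 at the 5′ end of the window, and then the base of SERPINB4. They are in capitals, and both windows are on the minus strand, at chr18:63661844-63662143 for SERPINB3 and chr18:63644207-63644506 for SERPINB4.
SERPINB3: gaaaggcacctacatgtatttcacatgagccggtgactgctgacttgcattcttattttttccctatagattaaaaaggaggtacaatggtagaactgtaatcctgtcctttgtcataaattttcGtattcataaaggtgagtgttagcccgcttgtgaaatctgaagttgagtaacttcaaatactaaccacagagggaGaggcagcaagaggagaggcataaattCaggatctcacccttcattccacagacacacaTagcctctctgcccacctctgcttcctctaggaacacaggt
SERPINB4: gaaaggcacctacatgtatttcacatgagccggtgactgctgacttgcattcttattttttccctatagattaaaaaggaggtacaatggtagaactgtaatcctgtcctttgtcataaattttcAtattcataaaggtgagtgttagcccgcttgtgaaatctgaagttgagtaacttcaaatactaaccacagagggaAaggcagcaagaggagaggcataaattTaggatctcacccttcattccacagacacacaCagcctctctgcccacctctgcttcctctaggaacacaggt

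SERPINB13, known as headpin or hurpin, is another inhibitor of cathepsins L and K that is expressed in differentiating squamous epithelium. Its brightest probe set (211361_s_at) had 9.47, 8.68 and 7.14 in MBD2 cells against 12.33, 12.42 and 11.93 in control cells. Here control array 3 was the lowest control, unlike for SERPINB3 and SERPINB4, and MBD2 array 3 was the lowest of its group. The mean was 8.43 ± 1.19 in MBD2 cells and 12.23 ± 0.26 in control cells (SD, n = 3 each), a 13.9-fold decrease (log2 difference -3.80, standard error 0.58, adjusted p = 0.0434 from limma). The second brightest (217272_s_at) had 8.54, 8.18 and 6.56 in MBD2 cells and 12.29, 12.24 and 11.26 in control cells, an 18-fold decrease (log2 difference -4.17, adjusted p = 0.0352).

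The dimmer probe sets of SERPINB13 divided into a pair that fell and a pair that was not called. The probe set 211362_s_at had 4.77, 5.04 and 4.91 in MBD2 cells and 7.87, 7.71 and 7.35 in control cells, a 6.66-fold decrease with the smallest adjusted p of the family (log2 difference -2.73, standard error 0.16, adjusted p = 0.00537 from limma). The probe set 216258_s_at had 3.72, 3.63 and 4.12 in MBD2 cells, all at background, against 6.94, 6.79 and 6.40 in control cells (log2 difference -2.88, adjusted p = 0.00751). On both, the MBD2 arrays lay closer together than on the brighter pair. The remaining probe sets, 216257_at and 215817_at, derive from the same accession as 216258_s_at and had log2 differences of -0.75 (adjusted p = 0.135) and -0.07 (adjusted p = 0.796). The levels of 215817_at were 4.35 to 4.45 in MBD2 cells and 4.37 to 4.63 in control cells, so the groups overlapped just above background.

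The calls of SERPINB13 differed in how far they rested on single arrays. That of 211362_s_at was lost without control array 2 (adjusted p = 0.0649), and that of 216258_s_at without control array 1 or 2 (0.0639 and 0.0767). That of 217272_s_at was lost without MBD2 array 2 or 3 or control array 1 or 2 (0.0824 to 0.165), and that of 211361_s_at when any array other than MBD2 array 1 was removed (0.0671 to 0.185). All 6 called serpin probe sets have a name ending for sequence shared between transcripts (_s_at or _x_at), as do 10 of the 21. Of the 11 probe sets with no such ending 0 were called, against 0.978% called lower and 0.898% higher of all probe sets. On 6 of the 11 every MBD2 array lay below every control array, against 12.3% of all probe sets.

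**Figure D2:**
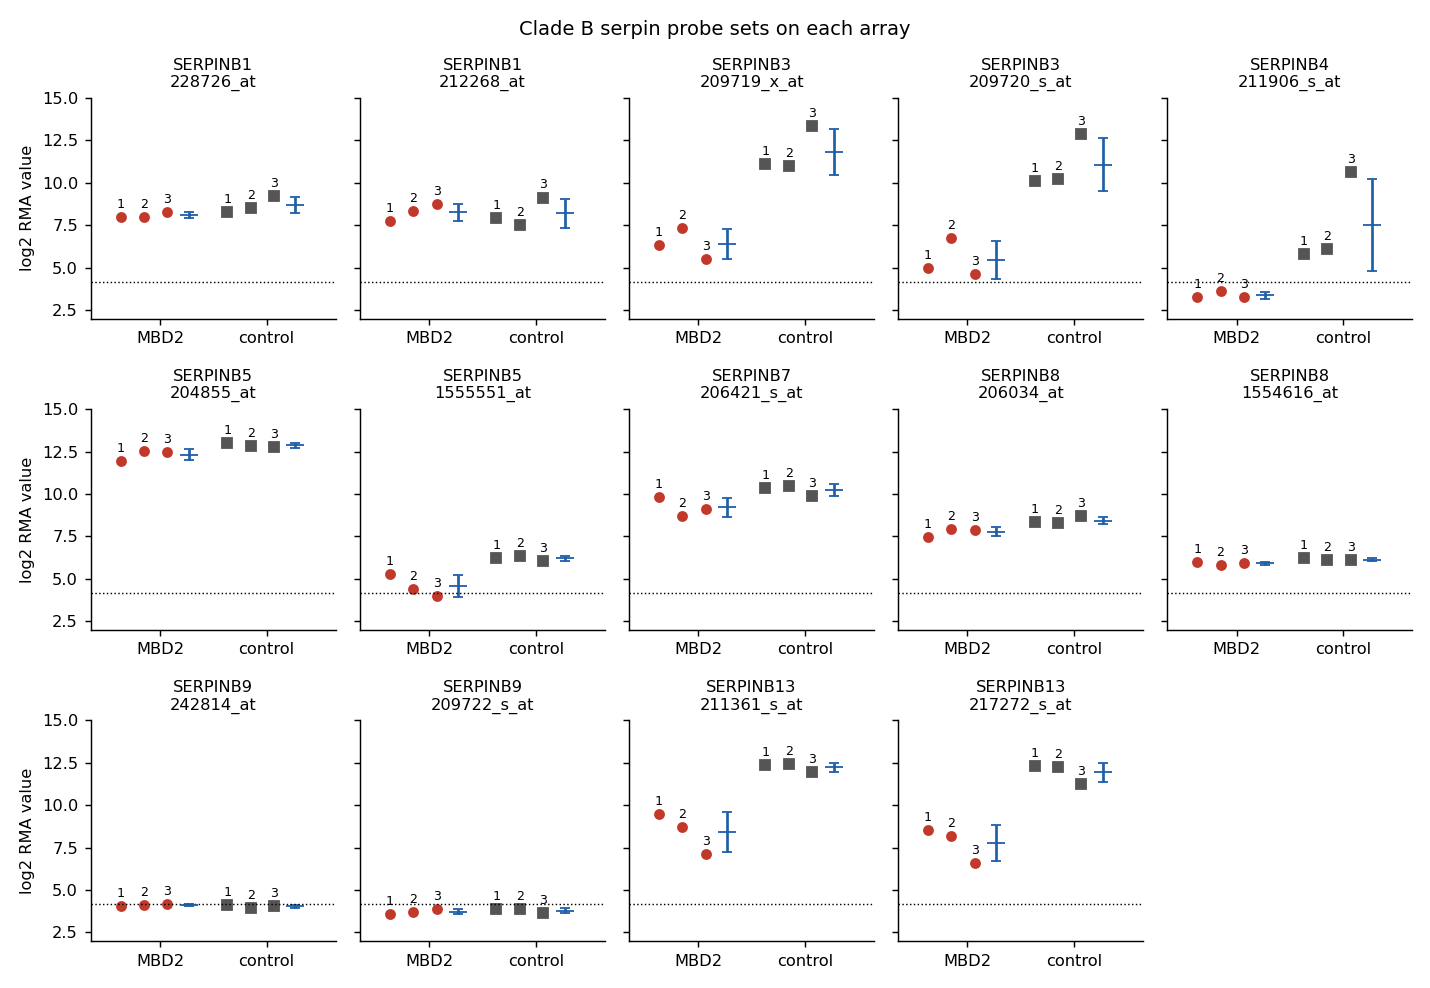
Log2 RMA values of the brightest 1 or 2 probe sets of each gene on MBD2 arrays (red circles) and control arrays (grey squares), numbered by replicate, with the mean and SD of each group in blue. The dotted line is the background limit of 4.17. SERPINB3 and SERPINB13 show a wide gap between groups. SERPINB4 shows a gap as well, and its control array 3, at 10.63, lies far above its other controls. SERPINB9 lies at background on all 6 arrays.

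SERPINB5, or maspin, does not inhibit proteases in the way of its relatives and is known as a suppressor of invasion that normal mammary epithelium makes and that many breast carcinomas lose. Its brightest probe set (204855_at) had 11.93, 12.53 and 12.45 in MBD2 cells against 12.99, 12.85 and 12.74 in control cells. The groups did not overlap, but the gap was small. The log2 difference was -0.56 (standard error 0.19), with an adjusted p of 0.224 from limma. The other probe set (1555551_at) had 5.31, 4.42 and 4.01 in MBD2 cells and 6.25, 6.35 and 6.03 in control cells, a log2 difference of -1.63 (standard error 0.34, adjusted p = 0.0838 from limma). Without MBD2 array 1 it was -2.00 with an adjusted p of 0.00466. When the probe sets of each gene were averaged, SERPINB5 had a log2 difference of -1.09 and an adjusted p of 0.0215, so its call depended on how probe sets were combined.

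SERPINB7, or megsin, is a serpin of the upper epidermis whose loss causes a form of palmoplantar keratoderma. Its only probe set (206421_s_at) had 9.80, 8.69 and 9.13 in MBD2 cells against 10.38, 10.48 and 9.85 in control cells. MBD2 array 1 and control array 3 nearly met. The log2 difference of -1.03 (standard error 0.32) did not pass the test (adjusted p = 0.2 from limma), and without MBD2 array 1 it was -1.33 with an adjusted p of 0.0239.

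SERPINB8 inhibits the proprotein convertase furin. Its brighter probe set (206034_at) had 7.46, 7.95 and 7.89 in MBD2 cells against 8.33, 8.27 and 8.67 in control cells, and its dimmer one (1554616_at) 5.99, 5.80 and 5.94 against 6.21, 6.08 and 6.12 in control cells. On both, every MBD2 array lay below every control array, with log2 differences of -0.66 and -0.23 and adjusted p of 0.161 and 0.332 from limma. With the arrays centred on the median of the housekeeping genes the second turned to 0.31.

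The 2 measured members of the 6p25 cluster did not pass the test on any probe set. SERPINB1 inhibits the neutrophil proteases elastase, cathepsin G and proteinase 3, and its 4 probe sets differed in direction. The brightest (228726_at) had 7.98, 7.99 and 8.30 in MBD2 cells and 8.28, 8.52 and 9.20 in control cells (log2 difference -0.58, adjusted p = 0.33 from limma). The next (212268_at) had 7.75, 8.33 and 8.73 in MBD2 cells and 7.95, 7.51 and 9.13 in control cells, and its log2 difference was 0.07 (adjusted p = 0.959). That of 213572_s_at was 0.36 (adjusted p = 0.777) and that of 239213_at -0.36 (adjusted p = 0.264), or 0.18 with the centring on housekeeping genes. On all 4, control array 3 was the highest of the 6 arrays, and it lay 0.044 to 1.53 above the mean of the other controls. Without control array 3 and MBD2 array 1 together, 212268_at and 213572_s_at were called higher, with log2 differences of 0.80 (adjusted p = 0.0102) and 1.18 (adjusted p = 0.000613), where 15.5% of all probe sets were called higher.

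SERPINB9 protects cells from granzyme B, the death protease of cytotoxic lymphocytes. All 3 of its probe sets were at background on every array, from 3.40 to 4.16 in MBD2 cells and from 3.38 to 4.12 in control cells. Their log2 differences lay between -0.07 and 0.07, and between 0.47 and 0.61 with the centring on housekeeping genes, about the shift of all probe sets under it.

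Across the family, control array 3 and MBD2 array 1 stood apart in different directions for different genes. On control array 3, SERPINB3 and SERPINB4 were 2.33 to 4.68 above the other controls and SERPINB13 (217272_s_at) 1.00 below them. On MBD2 array 1, SERPINB13 (211361_s_at) was 1.56, SERPINB5 (1555551_at) 1.10 and SERPINB7 0.89 above the mean of MBD2 arrays 2 and 3, and SERPINB1 (213572_s_at) was 0.92 below it. The part of whatever sets these arrays apart in the serpin differences was not tested.

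Along the chromosome the largest differences lay next to each other. In the 18q21 cluster the measured genes run SERPINB5, SERPINB12, SERPINB13, SERPINB4, SERPINB3, SERPINB11, SERPINB7, SERPINB10 and SERPINB8. The 3 adjacent genes SERPINB13, SERPINB4 and SERPINB3 had log2 differences of -3.80, -4.12 and -5.42 on their brightest probe sets, of which that of SERPINB4 was not called. The probe sets of SERPINB3 and SERPINB4 have endings for shared sequence, and their transcripts are close to identical. Whether the probe sets read these genes apart was not tested, so their decreases may not be separate. Those of SERPINB5, SERPINB7 and SERPINB8 were -0.56, -1.03 and -0.66, none of them called.

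The other clade B serpins of the cluster were dim. SERPINB12, an inhibitor of trypsin-like proteases of the epidermis, had 4.31, 4.47 and 4.62 in MBD2 cells and 4.29, 4.17 and 4.31 in control cells (log2 difference 0.21, adjusted p = 0.418 from limma). SERPINB10 and SERPINB11 were at background on average, and 0 of the 3 were called. Of the 5 nearest measured genes on either side of the 18q21 cluster, from ZCCHC2 and the apoptosis inhibitor BCL2 to the cadherin gene CDH19, 0 of 10 were called, with a median log2 difference of -0.08. Of the 10 around the 6p25 cluster 0 were called, with a median of -0.07. Of all genes 1.5% were called lower and 1.25% higher, and the median of all genes was -0.02. At background on average were 3 of the 10 around the 18q21 cluster and 2 of the 10 around the 6p25 cluster. In RNA from a cell population, fewer cells that express a gene and less RNA per cell cannot be told apart.

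**Figure D3:**
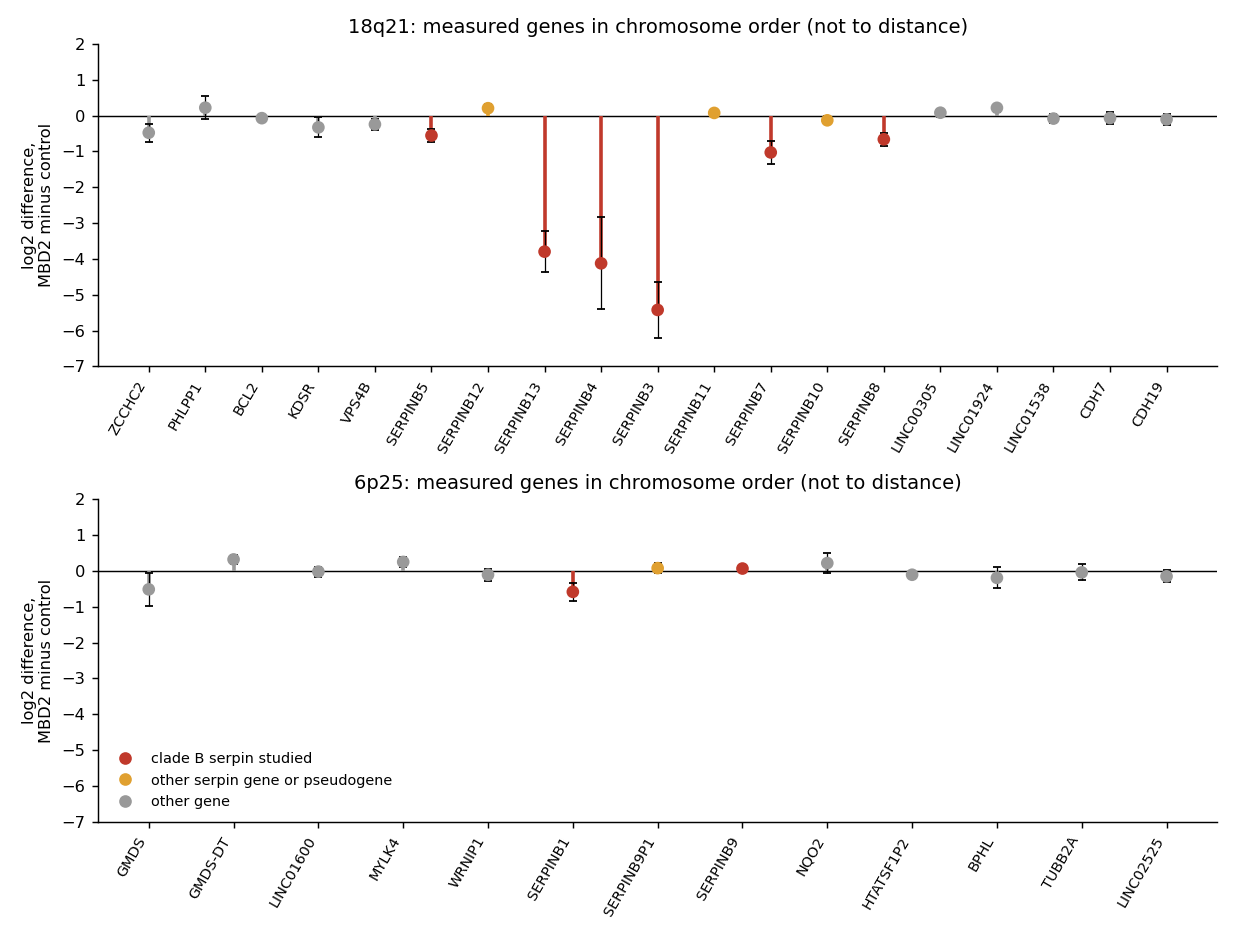
Log2 difference between MBD2 and control cells for the brightest probe set of each measured gene, in chromosome order around the 18q21 and 6p25 clusters, with the standard error from limma. In 18q21 the 3 adjacent genes SERPINB13, SERPINB4 and SERPINB3 lie between -5.42 and -3.80, and the flanking genes (grey) lie between -0.48 and 0.22.

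Serpins of other clades did not pass the test in either direction. Of 18 measured genes, 7 were at background on average. Of the 18, 0 were higher and 0 lower, against 1.25% and 1.5% of all genes, with a median log2 difference of -0.02. The one that differed most was SERPINE2, which encodes protease nexin 1, with 12.10, 11.58 and 11.96 in MBD2 cells and 10.79, 10.84 and 7.43 in control cells (log2 difference 2.20, adjusted p = 0.29 from limma), and it was chosen after its values were seen. Control array 3 was low there and high for SERPINB3.

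Of 18 proteases that clade B serpins are known to inhibit or that belong to the same families, 2 were lower and 0 higher in MBD2 cells, with a median log2 difference of -0.10. Of all genes 1.5% were lower and 1.25% higher. The kallikrein KLK8, a serine protease of the epidermis, had 6.61, 6.39 and 5.97 in MBD2 cells and 8.54, 8.50 and 9.59 in control cells (log2 difference -2.56, standard error 0.34, adjusted p = 0.027 from limma). The lysosomal cysteine protease CTSH was lower as well, with a log2 difference of -1.68 (standard error 0.23, adjusted p = 0.029). The targets of SERPINB3 and SERPINB13 differed among themselves and none was called. CTSL had 12.19, 11.46 and 11.31 in MBD2 cells and 12.03, 12.21 and 10.65 in control cells, and its log2 difference was 0.03 (adjusted p = 0.984). CTSV, its close relative of keratinocytes, had -0.49 (adjusted p = 0.756), CTSS -1.51 (adjusted p = 0.0772) and CTSK 0.78 (adjusted p = 0.14). PLAU and PLAT, the plasminogen activators, had 0.20 (adjusted p = 0.74) and 0.40 (adjusted p = 0.539).

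Leukocytes are known to express SERPINB1 and SERPINB9. Of 8 measured leukocyte markers 3 were at background on average, among them PTPRC, the pan-leukocyte antigen, with 3.50 to 3.87 on MBD2 arrays and 3.81 to 4.03 on control arrays. The mean of the list was 4.91 to 4.95 on MBD2 arrays and 5.27 to 5.41 on control arrays. Of the 8, 1 was lower, the lipopolysaccharide receptor gene CD14 (log2 difference -3.07, adjusted p = 0.0416 from limma), and 0 were higher, against 1.5% and 1.25% of all genes. CD14 was the brightest of the list, with a mean of 7.18 in MBD2 cells and 10.25 in control cells. The log2 differences of the 7 others lay between -0.18 and 0.12, so the gap in the list mean came mostly from CD14. None of 8 fibroblast and 7 HEK293 markers was called. The mean of the fibroblast list was 8.10, 6.35 and 6.62 on MBD2 arrays 1, 2 and 3 and 6.53 to 6.92 on control arrays. MBD2 array 1 stood apart there in the matrix genes DCN, COL3A1 and LUM. It did not stand apart in the collagen genes COL1A1 and COL1A2 or in the other genes of the list. On MBD2 arrays 1, 2 and 3, COL1A1 had 10.60, 10.61 and 9.75 and COL1A2 had 5.92, 6.54 and 6.25. DCN, which encodes decorin, was at 12.57, 7.59 and 8.54 on MBD2 arrays 1, 2 and 3 and 8.43 to 9.74 on control arrays. The collagen gene COL3A1 had 8.90, 4.99 and 4.92 in MBD2 cells and 4.84 to 5.28 in control cells, and LUM, which encodes lumican, had 9.63, 4.03 and 6.27 in MBD2 cells and 7.08 to 8.03 in control cells. The mean of the HEK293 list was 4.86 to 4.89 on MBD2 arrays and 4.89 to 5.04 on control arrays. The part of these markers in the serpin differences was not tested.

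MBD2 binds methylated CG dinucleotides, and the promoters of the family differ in how many they hold. Over 35116 RefSeq promoter windows of 300 bases the median was 14 CG dinucleotides, with quartiles of 4 and 28, and 96.0% of windows held at least 1. The windows of SERPINB4, SERPINB3 and SERPINB13 held 2, 3 and 4. Those of SERPINB7 held 2, 0 and 1 at its 3 annotated starts, and that of SERPINB8 held 9. SERPINB5 had 16, SERPINB1 27 and SERPINB9 35. The 3 windows below, with every CG in capitals, are those of SERPINB13 (chr18:63587093-63587392, plus strand), which was called lower and has few, SERPINB5 (chr18:63476708-63477007, plus strand) with a middle number and SERPINB1 (chr6:2841814-2842113, minus strand) with many, all in GRCh38.p14. Neither methylation nor binding of MBD2 was measured on these arrays.
SERPINB13: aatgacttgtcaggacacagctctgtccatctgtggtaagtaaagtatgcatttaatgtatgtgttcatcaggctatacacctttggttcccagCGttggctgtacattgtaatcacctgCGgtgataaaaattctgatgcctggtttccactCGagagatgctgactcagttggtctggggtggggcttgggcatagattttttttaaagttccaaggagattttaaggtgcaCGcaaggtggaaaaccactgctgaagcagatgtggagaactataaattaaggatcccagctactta
SERPINB5: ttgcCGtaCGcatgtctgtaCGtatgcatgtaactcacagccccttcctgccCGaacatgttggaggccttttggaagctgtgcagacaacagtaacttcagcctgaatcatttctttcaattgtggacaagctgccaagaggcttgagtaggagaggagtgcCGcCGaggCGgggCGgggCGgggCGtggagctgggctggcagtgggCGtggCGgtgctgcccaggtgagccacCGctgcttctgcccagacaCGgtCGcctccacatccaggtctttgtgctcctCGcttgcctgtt
SERPINB1: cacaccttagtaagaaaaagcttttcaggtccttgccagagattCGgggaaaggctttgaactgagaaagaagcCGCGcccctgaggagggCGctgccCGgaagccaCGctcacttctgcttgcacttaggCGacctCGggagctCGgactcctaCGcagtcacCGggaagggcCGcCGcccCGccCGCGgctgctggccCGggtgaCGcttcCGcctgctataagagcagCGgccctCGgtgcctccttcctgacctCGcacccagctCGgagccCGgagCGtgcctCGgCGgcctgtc

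**Figure D4:**
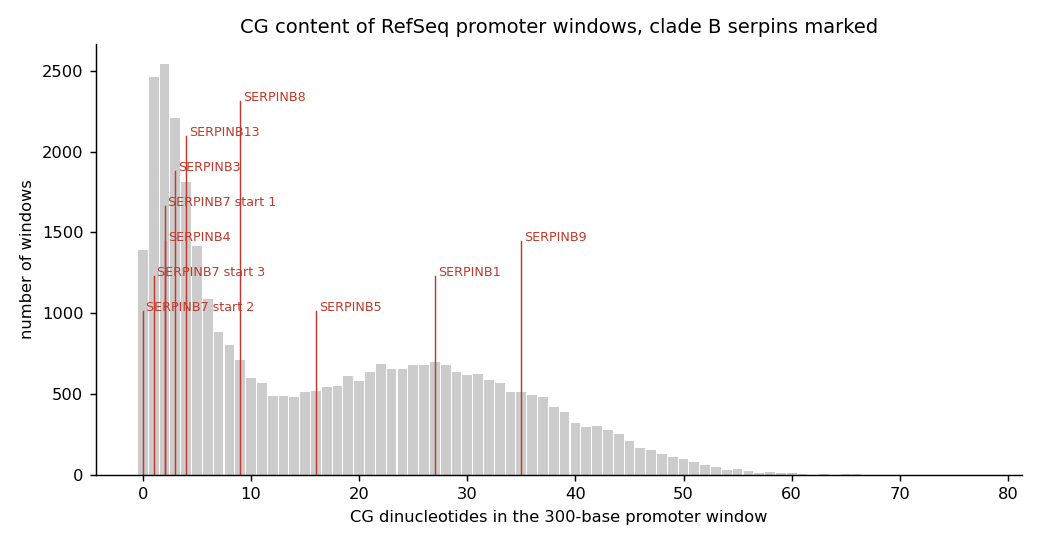
Number of CG dinucleotides in 35116 RefSeq promoter windows of 300 bases (grey bars), with the windows of the 8 measured serpins marked by red lines whose height has no meaning. The windows of SERPINB3, SERPINB4, SERPINB7 and SERPINB13 hold 0 to 4, and those of SERPINB1 and SERPINB9 hold 27 and 35.

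The motif TGACTCA, searched on both strands so that TGAGTCA also counts, is the binding sequence of AP-1 factors, which drive many genes of keratinocyte differentiation. It was found in 4.95% of all windows. In the family it occurred in the window of SERPINB13, which was called lower, in those of the later 2 starts of SERPINB7, and in that of SERPINB8, each of which was not called. It did not occur in the windows of SERPINB3, SERPINB4, SERPINB5, SERPINB1 and SERPINB9. Other motifs were searched on both strands in the same windows: TGANTCA, which includes every TGACTCA match, in 5 of 10 family windows and 7.71% of all, TATAAA in 4 of 10 and 11.5%, and CACGTG in 0 of 10 and 7.26%. TGACTCA was chosen for display after the matches were seen. Its matches lie 87, 39, 45 and 28 bases before the annotated start and are shown with the motif in capitals, all on the plus strand of chromosome 18 in GRCh38.p14.
SERPINB13 (chr18:63587244-63587274): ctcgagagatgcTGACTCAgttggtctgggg
SERPINB7, start 2 (chr18:63775367-63775397): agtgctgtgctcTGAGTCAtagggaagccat
SERPINB7, start 3 (chr18:63777724-63777754): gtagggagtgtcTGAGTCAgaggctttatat
SERPINB8 (chr18:63970041-63970071): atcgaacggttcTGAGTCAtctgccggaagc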

How the data were processed

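Expression was measured in 6 samples of MCF-10A, 3 MBD2 and 3 control, on Affymetrix Human Genome U133 Plus arrays. The deposited values are log2 levels that the authors computed by RMA (submitters' processing notes: RMA and affy, without versions), which gives all arrays nearly the same distribution and hides a change that affects most transcripts. There are no read counts behind them, and the small number of arrays limits precision.

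Probe sets took their symbols from the platform annotation, updated by Entrez identifier (19735 of 19777 matched the RefSeq table). The 1801 probe sets with several symbols, 11721 with none listed and 62 controls were left out. Groups were compared across all 41091 probe sets, and across 19775 genes by their brightest probe set, with limma 3.58.1 in R 4.3.3 (lmFit, eBayes, Benjamini-Hochberg adjustment), tested on simulated data. Differences are MBD2 minus control. No filter on dim probe sets was used.

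The text names all members, the called genes of each related list up to 5, and PLAU, PLAT, CTSL, CTSV and SERPINB12, plus MBD2. Lists covered other clade B serpins, serpins of other clades, inhibited proteases, chromosome neighbours, cell type markers and housekeeping genes. The members and lists were chosen with earlier results of these data known. BCL2, ZCCHC2, CDH19, CTSS, CTSK, PTPRC, DCN, COL3A1, LUM, COL1A1, COL1A2 and SERPINE2 were named after their values were seen. Of the housekeeping list, 0 of 18 measured genes were called, against 1.5% lower and 1.25% higher of all genes. Alternatives were a minimum mean of 5, centring on the median of the housekeeping genes, further quantile normalization, another variance model, probe sets without an ending for shared sequence, the mean of all probe sets, arrays left out, averaged or blocked, and other thresholds. A second form of the centring, on the median deviation of the housekeeping genes from their own means, was added after the result of the first was seen. Promoter windows are from RefSeq (GRCh38.p14), and the motifs searched in them were chosen after the sequences were seen.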

Additional observations from a re-analysis of the deposited data

How the results depend on the processing

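The counts of serpin probe sets (6) and genes (2) called lower stayed within 1.5 times under a minimum mean of 5, further quantile normalization, trend and robust fitting, no fold threshold, the mean of all probe sets (3 genes) and the fold rule of the methods (over 1.5-fold or under 0.5 on each MBD2 array), which gave 7 probe sets and 3 genes. Under these settings 0.698% to 1.76% of all probe sets and 234 to 357 of all genes were lower. Centring on the median of the housekeeping genes gave 7 probe sets and 3 genes lower and 1 probe set and 1 gene higher. It moved the median of all probe sets to 0.537 and called 386 of all lower and 12422 higher. Of all genes it called 231 lower and 5165 higher. Centring on the median deviation of the same genes from their own means, a form chosen after seeing the data because of that shift, gave 6 and 2 lower and 0 higher, with 388 of all lower and 410 higher. Of all genes 277 were then lower and 267 higher. When probe sets with an ending for shared sequence were dropped, 0 probe sets and 0 genes were lower, since every called one has such an ending. Of all that remained, 0.919% of probe sets and 205 genes were lower. Leaving out each array gave 0 to 8 probe sets, where 0.0438% to 4.68% of all were called lower, and 0 to 3 genes, where 17 to 1123 of all were. Averaging the near-identical arrays gave 0 and 0, as it did over all probe sets and all genes. Blocking on the hybridization controls, which compares MBD2 array 1 with the control arrays, gave 2 and 0 (248 of all probe sets and 197 of all genes), and both probe sets of SERPINB3 and 211361_s_at and 217272_s_at of SERPINB13 lost the call. Removing MBD2 array 1 together with control array 3 gave 10 and 4 lower and 2 probe sets higher, with 9.96% of all probe sets lower and 15.5% higher. Of all genes 2110 were then lower. The cause of these shifts was not tested. Replicate numbers are shared by the groups. Deviations of same-numbered arrays from their group means correlated at 0.208, -0.329 and 0.285 for numbers 1, 2 and 3. MBD2 array 1 correlated best with control array 2. Because 1 array of each group stood apart from the other 2, these correlations cannot decide whether the numbers pair the arrays. With the replicate block 0 probe sets and 0 genes were lower (23 of all probe sets and 51 of all genes).

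Of 322 values of single probe sets under the alternatives, 260 kept direction and side of the threshold, 36 lost the call, 11 gained it and 15 changed sign, all 15 of them values not called in either form. Centring on the median of the housekeeping genes gave 0.31 for SERPINB8 (1554616_at), 0.47 and 0.50 for SERPINB9 (209722_s_at and 209723_at), 0.47 for SERPINB13 (215817_at) and 0.18 for SERPINB1 (239213_at). SERPINB1 (212268_at) had -0.29 with near-identical arrays averaged, -0.45 with the hybridization block and -0.27 to 0.54 with 1 array left out. SERPINB1 (213572_s_at) had -0.045 and -0.25 under averaging and that block. SERPINB9 (209723_at) had 0.017 without MBD2 array 1 and control array 3 and -0.085 to 0.026 with 1 array left out, and SERPINB13 (215817_at) had -0.12 to 0.0090. Signal near background limits SERPINB9, SERPINB4 and the dim probe sets of SERPINB5 and SERPINB13 in MBD2 cells.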
